A study of Drosophila melanogaster with 2 samples.

Results

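The genes for small nucleolar RNAs (snoRNAs) and the genes that carry them were examined in a map of where a GFP-tagged CG6854 protein bound in prepupae of Drosophila melanogaster. Members were all genes with the biotype snoRNA in the Ensembl annotation of the fly genome on the 6 nuclear arms, which gave 269 of 18164 genes other than transposable elements. ChIP-seq, which sequences the DNA that an antibody pulls down with chromatin, used an antibody to GFP and sonicated chromatin of whole animals. There is 1 group, a transgenic line that stably makes CG6854 fused to GFP at the C-terminal end. The labels name CTPsyn, an older name of the CTP synthase gene, as the target, pool males and females, and give biological replicates 2 and 3. Prepupae are the stage at which metamorphosis begins, their age is labelled unknown, and a strong signal in few cells cannot be told apart from a weak one in many. Control libraries were not analysed here. The values come from the peaks that passed the authors' irreproducible discovery rate (IDR) threshold on build dm6, with 5703 summits, a summit being the base where a peak is highest. The signal of a peak is the authors' score, on a scale that is not stated, and is compared only within a list. With 1 group there was no comparison between conditions and no test was possible; shares carry exact (Clopper-Pearson) 95% intervals, which cover counting error only.

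Most snoRNAs guide the modification of ribosomal RNA or of small RNAs in the nucleolus. Box C/D snoRNAs direct fibrillarin to add methyl groups to ribose, and box H/ACA snoRNAs direct dyskerin, Nop60B in the fly, to turn uridine into pseudouridine. Their relatives in Cajal bodies, the scaRNAs, guide the same changes in spliceosomal RNAs. Most fly snoRNAs have no promoter of their own: they are cut out of introns of a host gene, often one for a ribosomal protein, or of a noncoding U snoRNA host gene (Uhg) that is known mainly for the snoRNAs in its introns.

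Members of both classes that lay close to a summit are shown first, since their letters carry the class. All sequences are from the RefSeq assembly of dm6, 5′ to 3′ on the strand of the gene. In snoRNA:Me18S-A1576 (chr2L:9894795-9894907, minus strand, in intron 1 of Uhg2) and snoRNA:Me28S-A774b (chr3L:13023580-13023652, plus strand, in intron 2 of RpS12), capitals mark box C (TGATGA) and box D (CTGA). In snoRNA:Or-aca2 (chrX:7901062-7901203, minus strand, in intron 1 of RpS6), snoRNA:Psi18S-1086 (chr3L:833062-833209, minus strand, in intron 1 of Sf3b3) and snoRNA:Psi18S-301 (chr3R:20574906-20575043, plus strand, in no host gene), capitals mark the ACA that precedes the last 3 bases.
snoRNA:Me18S-A1576: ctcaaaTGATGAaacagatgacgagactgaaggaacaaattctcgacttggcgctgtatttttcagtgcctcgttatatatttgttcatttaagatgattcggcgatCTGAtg
snoRNA:Me28S-A774b: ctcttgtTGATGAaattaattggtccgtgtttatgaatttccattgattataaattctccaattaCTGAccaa
snoRNA:Or-aca2: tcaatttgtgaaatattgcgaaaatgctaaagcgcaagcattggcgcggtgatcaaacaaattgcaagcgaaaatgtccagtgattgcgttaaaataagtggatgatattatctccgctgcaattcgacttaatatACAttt
snoRNA:Psi18S-1086: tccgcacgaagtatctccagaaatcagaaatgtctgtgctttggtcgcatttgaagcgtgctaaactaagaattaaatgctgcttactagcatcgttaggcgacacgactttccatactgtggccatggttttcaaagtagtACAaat
snoRNA:Psi18S-301: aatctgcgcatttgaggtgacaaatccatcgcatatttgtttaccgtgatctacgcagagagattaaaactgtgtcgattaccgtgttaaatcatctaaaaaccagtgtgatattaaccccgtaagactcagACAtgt

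The peak at snoRNA:Psi18S-301 is shown because no gene other than the snoRNA starts near it (chr3R:20574701-20574842, plus strand); capitals mark the 11 bases centred on the summit. Host promoters are given from 100 bases before to 30 after the outermost start. Uhg2 (chr2L:9894974-9895103, minus strand) and Sf3b3 (chr3L:833356-833485, minus strand) had a promoter summit in the IDR list. Uhg3 (chr2L:20647433-20647562, plus strand) had none there. The summit of Uhg2 lies within the printed letters, and that of Sf3b3, 57 bp past its start, lies outside them. Capitals in the promoters mark matches on either strand to the motifs searched, which in these windows were TATCGAT, with overlapping matches run together, then CACGTG, also CTTTTC, and lastly TATAAA. The same windows of RpS4 and RpL30, which also had a promoter summit, held no match and are not printed.
peak at snoRNA:Psi18S-301: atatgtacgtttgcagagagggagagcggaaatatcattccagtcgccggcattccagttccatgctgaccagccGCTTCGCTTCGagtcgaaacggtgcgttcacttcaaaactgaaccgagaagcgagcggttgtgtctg
Uhg2: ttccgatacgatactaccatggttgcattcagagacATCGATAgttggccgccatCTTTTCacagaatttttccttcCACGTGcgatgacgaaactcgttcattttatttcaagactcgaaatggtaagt
Sf3b3: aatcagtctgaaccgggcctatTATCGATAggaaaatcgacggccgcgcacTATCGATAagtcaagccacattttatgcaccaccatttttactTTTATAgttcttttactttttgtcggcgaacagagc
Uhg3: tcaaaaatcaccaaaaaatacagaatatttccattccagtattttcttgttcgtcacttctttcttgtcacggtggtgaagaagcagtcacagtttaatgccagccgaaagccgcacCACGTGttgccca

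The annotated class was checked against these letters. Box C lay in the first 30 bases of 78 of the 109 members named as box C/D and of 0 of the 114 named as box H/ACA. Box D lay in the last 20 bases of 102 of 109 and of 5 of 114. An ACA before the last 3 bases ended 106 of the 114 box H/ACA members and 2 of the 109 others. A further 30 genes have names that give no class, and 16 are scaRNAs. The genes are 46 to 316 bp long, with a median of 134 bp, and 96 lie on 2R, 52 on 3L, 48 on 3R, 41 on 2L, 31 on X and 1 on 4.

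The share of snoRNA genes with a summit close to their own start was below that of other genes, while more than 1 in 2 lay inside a host gene with a summit at its promoter. A summit lay within 500 bp of the start of 25 of 269 snoRNA genes (9.29%, interval 6.1 to 13.4), at 22 distinct summits. The background was 15.6% of the starts of the 17895 other genes, and 3.95% of the bases of the arms lie within 500 bp of a summit. A host on the same strand held 247 of the 269 members (91.8%), and 243 of these lay in an intron. A host with a summit within 500 bp of any of its transcript starts held 147 of 269 (54.6%, interval 48.5 to 60.7), which is 59.5% of the 247 with a host. Beside this, 30.8% of the 59624 midpoints of introns in protein-coding genes lay in a gene with a promoter summit; the difference was not tested. Those 147 members contributed 18 of the 25 with a summit near the start (12.2% of 147, interval 7.42 to 18.7). Of the 100 members in hosts without a promoter summit, 1 had a nearby summit (interval 0.0253 to 5.45%), and of the 22 members in no host, 6 had one (27.3%, interval 10.7 to 50.2). Members in 1 host, or at 1 summit, are not independent, and the intervals take no account of that.

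Of the 25 nearby summits, counted per member, 16 also lay within 500 bp of a start of the host, and 24 lay upstream of the snoRNA. Among the 18 that are intronic, 10 lay in the first intron of the host, against 48 of the other 225 intronic members. The distance from snoRNA to host start had a median of 328.5 bp in the 18 members with a nearby summit in a host with a promoter summit, and of 1470 bp in the other 129 members of such hosts. Among these hosts, a nearby summit was found at 13 of 25 members within 500 bp of a host start (52%), at 3 of 32 between there and 1000 bp (9.38%), at 1 of 49 up to 2000 bp (2.04%) and at 1 of 41 beyond (2.44%). Midpoints of introns in all protein-coding genes with a promoter summit gave 54.7%, 15%, 4.24% and 2.04% in the same bins. Both shares were highest in the first bin and under 5% beyond 1000 bp, and their difference was not tested. These hosts were chosen for a summit within 500 bp of a start, and nearby members for one within 500 bp of their own. The shorter distances to the host start, the first introns, the upstream side and the fall over the bins are therefore partly built in. The rule used the 500 bp limit: snoRNA:U49:66Da in RpL14 lay just inside it at 490 bp, and snoRNA:Me18S-G1620 in Uhg2 and snoRNA:Me28S-A2113 in RpL30 lay just outside at 520 and 547 bp.

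**Figure D1:**
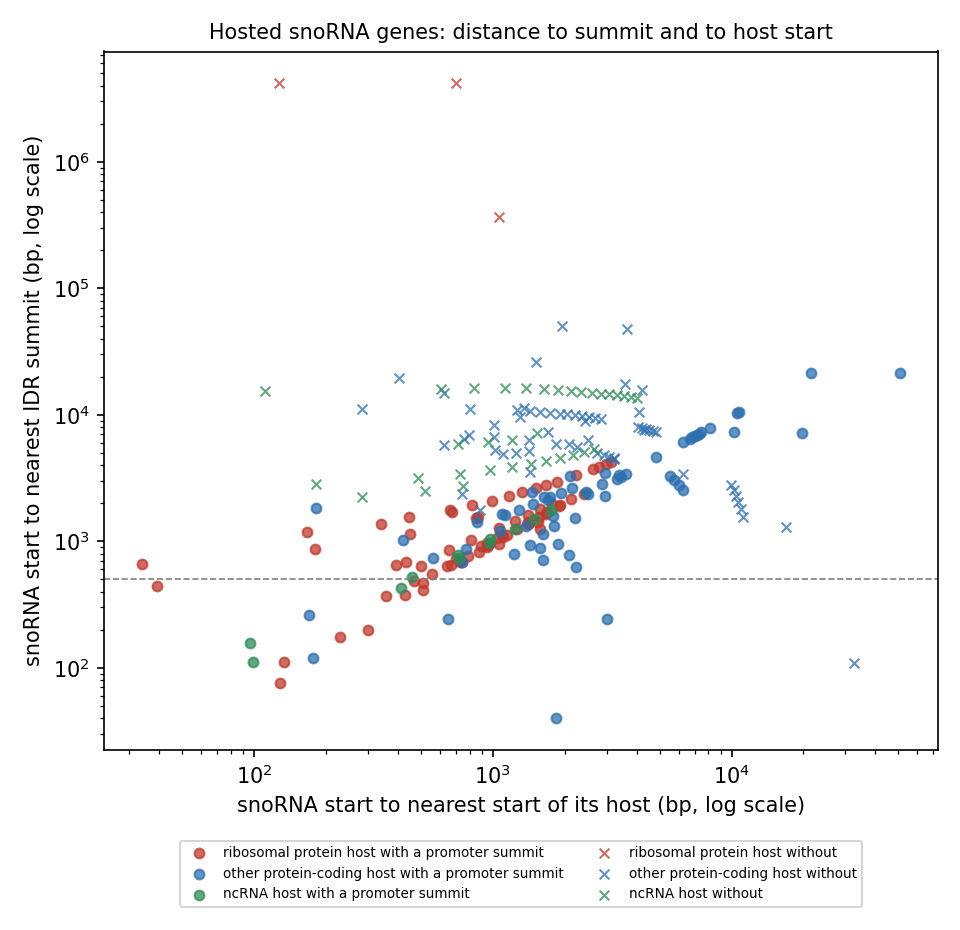
Each symbol is 1 of the 247 snoRNA genes in a host; the x axis is the distance from its start to the nearest start of the host and the y axis the distance to the nearest IDR summit (bp, both log scales). Circles, genes in hosts with a promoter summit, lie mostly near the diagonal; crosses, genes in other hosts, lie above the dashed line at 500 bp except 1.

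**Figure D2:**
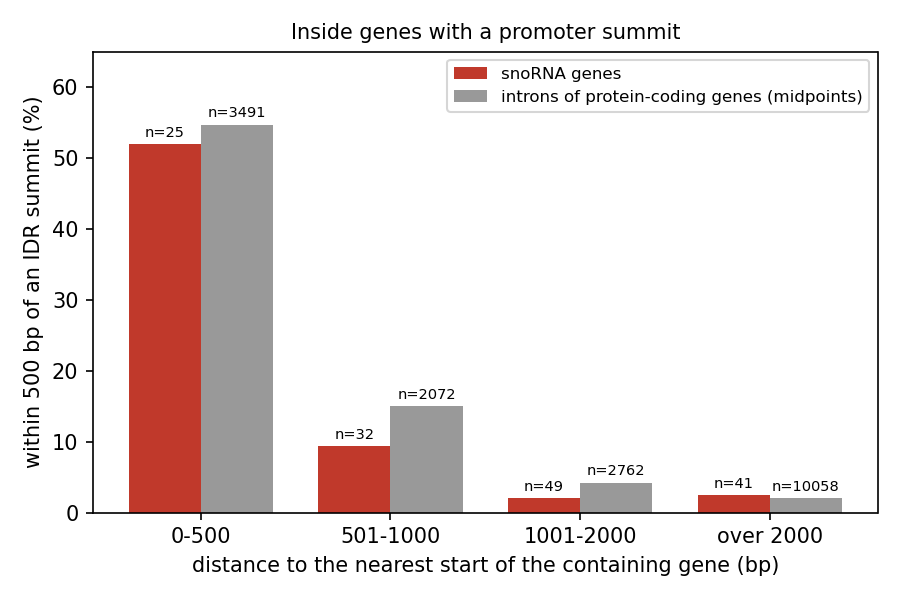
Bars give the percent of features within 500 bp of an IDR summit, by distance to the nearest start of the gene that contains them, in genes with a promoter summit; n is the number of features. Both snoRNA genes (red) and intron midpoints of protein-coding genes (grey) go from above 50% in the first bin to below 5% beyond 1000 bp.

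By class, a summit lay near 5 of 109 box C/D members (4.59%, interval 1.51 to 10.4), 13 of 114 box H/ACA members (11.4%, interval 6.21 to 18.7), 7 of 30 members whose name gives no class (23.3%, interval 9.93 to 42.3) and 0 of 16 scaRNAs (interval up to 20.6%). The first 2 intervals overlap. Hosts with a promoter summit held 55 of the 109 box C/D members, 73 of the 114 box H/ACA members, 12 of the 30 and 7 of the 16 scaRNAs. All 5 box C/D members with a nearby summit have box C in their first 30 bases, and all 13 box H/ACA members end in ACA and 3 bases. At least 1 other snoRNA gene with 90% or more identity exists for 32 of 269 members, among them 0 of the 25 with a nearby summit.

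Among members of the box C/D class, known for guiding ribose methylation, the highest signals lay at ribosomal protein hosts. Targets of single members were not examined, and names such as snoRNA:Or-CD11a give none. The summit upstream of snoRNA:U49:66Da lay 23 bp from a start of RpL14, with a signal of 523.7, and with 184.3 in replicate 2 and 345.8 in replicate 3. That of snoRNA:Or-CD11a lay 447 bp upstream, at another start of RpL28, with a signal of 502.7, and with 222.5 and 299.1. That of snoRNA:Me18S-C1096, 466 bp away in RpL3, had a signal of 494.1, and 256.7 and 234.8. These 3 summits also lie within 500 bp of a start of a neighbour, Nelf-E, eIF1 and CG6693 respectively, and cannot be given to 1 gene by position alone. The summit 175 bp upstream of snoRNA:Me28S-A774b in RpS12 had a signal of 423.1, and 205.5 and 222.8 in the replicates. The lowest of the 5 was at snoRNA:Me18S-A1576 in Uhg2, 157 bp from the summit, with 202.3, and 106.9 and 93.26; Bka starts there too. All 5 summits were matched in both replicates.

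Members of the box H/ACA class, known for guiding pseudouridylation, had nearby summits at ribosomal protein hosts, at Uhg4, at Sf3b3 and outside any host. Names such as snoRNA:Or-aca5 and snoRNA:Or-aca2 give no target. In Uhg4, 1 summit 12 bp from the start lay near 2 members, snoRNA:Psi28S-2949 at 111 bp and snoRNA:Or-aca5 at 424 bp. It was the strongest near any snoRNA gene, with a signal of 742.8, rank 147 of the IDR list, and 320.1 and 425.8 in replicates 2 and 3. The closest upstream summit to an intronic member of a ribosomal protein gene lay 76 bp from snoRNA:Or-aca2 in RpS6, a protein of the small subunit, with 333.2, and 171.6 and 159.4; the annotated gene CR33222 starts there as well. At snoRNA:Psi18S-920 in RpL10Ab the summit lay 111 bp away, with 249.4, and 110.4 and 146.2. At snoRNA:Psi18S-1086 in Sf3b3, which encodes a protein of the U2 part of the spliceosome, it lay 119 bp away, with 311.7, and 149 and 165.3. Each of these summits lies within 60 bp of an annotated host start.

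Other ribosomal protein hosts gave the same arrangement at longer range. The summit lay 200 bp from snoRNA:Psi18S-1275 in RpS29 (signal 278.1, replicates 132.5 and 143.9), and 370 bp from snoRNA:Psi28S-1232 in RpL17 (400.4, replicates 201.3 and 194.8). It lay 373 bp from snoRNA:Psi18S-1295 in RpS20 (251.7, replicates 123.1 and 135.8) and 415 bp from snoRNA:Psi28S-2648 in RpL36A (239.9, replicates 121.7 and 129.6). All 4 were matched in both replicates. The RpL17 summit also lies within 500 bp of tRNA:Phe-GAA-1-2, and that of RpS20 within 500 bp of the start of CG17271.

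Some summits were set apart from the promoter of the host. The only summit downstream of a snoRNA start lay 40 bp inside snoRNA:Psi28S-2566, in intron 2 of CG3902, 1877 bp from the nearest start of CG3902. Its signal was 150.9, with 82.61 and 74.08 in the replicates, while the promoter summit of CG3902 had 281.6. In hts, an adducin gene known for its part in the egg chamber's ring canals, the summit 244 bp upstream of snoRNA:hts-a lay 3238 bp from the host start, with 187.1, and 92.17 and 88.47. There tRNA:Val-AAC-2-1 starts 111 bp from the summit, and tRNA:Ser-CGA-1-4 starts within 500 bp too. At snoRNA:CG31191-a, the member in a host without a promoter summit, the summit lay 110 bp upstream and 32541 bp from the host start, with the lowest signal of all, 140.3, and 69.12 and 68.27. It fell out of the list when the 5703 strongest summits of either replicate were used instead.

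The remaining hosted members have names that give no class. snoRNA:CG43051-a lies 263 bp from a summit with a signal of 416.1, and 206.6 and 204.1 in the replicates; it is the 1 member with a nearby summit in a host but outside its introns, touching an exon of CG43051. snoRNA:gcl-a lies 244 bp from a summit with 168.7, and 77.25 and 80.66, in intron 1 of gcl, a gene needed to form germ cells, whose nearest start is 403 bp from that summit.

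Outside any host, 6 snoRNA genes lay near 4 summits. The summit 125 bp upstream of snoRNA:Psi18S-301, whose peak is printed among the sequences, had a signal of 223, with 132.4 in replicate 2 and 100 in replicate 3; the nearest start of a gene of another kind, that of TFAM, a mitochondrial transcription factor, is 2229 bp away. On 2R, 1 summit with a signal of 187.4 lay 53 bp from snoRNA:2R:9445410, 258 bp from snoRNA:2R:9445205 and 422 bp from snoRNA:Psi28S-1153, a row of 3 genes on 1 strand. It had 110 in replicate 2, and the replicate 3 summit there lay 109 bp away, outside the 100 bp used for matching, with 88.89; all 3 genes had a summit within 500 bp in each replicate. CG13334 starts 437 bp from the IDR summit. The summit at snoRNA:Psi18S-176 had 192.1, with 129.6 and 65.58, 212 bp from the snoRNA and 301 bp from the start of lncRNA:CR44805. The summit at snoRNA:185 had 246.1, with 117.1 and 140.4, 283 bp from the snoRNA and 96 bp from tRNA:Glu-TTC-1-5. Of these 4 summits, the one at snoRNA:Psi18S-301 had no other gene start within 500 bp. The other 16 members without a host, among them the U3 genes, lay from 2391 to 66969 bp from an IDR summit. Some had a summit within 500 bp in the relaxed pooled list, which precedes the IDR threshold and has no background here. Its signal was 134.3 at snoRNA:Or-aca4, 122.4 at snoRNA:Psi28S-2622 and 97.18 at snoRNA:U3:54Ab. The copy snoRNA:U3:54Aa, 100% identical to snoRNA:U3:54Ab, had none there.

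The 22 summits near snoRNA genes had a median signal of 250.6 (140.3 to 742.8), against 200.1 over the IDR list. In replicate 2 they had a median of 131 (69.12 to 320.1, all 22 matched) and in replicate 3 a median of 143.9 (65.58 to 425.8, 21 matched). The medians over the whole relaxed lists, which reach far lower peaks, were 34.36 and 38.75. Since the IDR list was derived from the replicate lists, presence in both was built in and is no measure of agreement.

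The 90 distinct hosts were described next, because a host promoter starts the transcript from which the snoRNA is cut. A promoter summit was found at 55 of 90 hosts (61.1%, interval 50.3 to 71.2). Among the 83 protein-coding hosts, 53 had one (63.9%, interval 52.6 to 74.1). The background was 20% of 13945 protein-coding genes, and 22.1% of the 11819 with an intron. Of the 29 hosts that encode cytoplasmic ribosomal proteins, 27 had one (93.1%, interval 77.2 to 99.2), as did 51 of the 64 ribosomal protein genes that hold no snoRNA (79.7%, interval 67.8 to 88.7). These 2 intervals overlap. The translation elongation factor gene eEF1alpha1 had a promoter summit with a signal of 320.1 (162.6 in replicate 2, 181.6 in replicate 3), 961 bp from its outermost start. Of the 53 other protein-coding hosts, 25 had one (47.2%, interval 33.3 to 61.4). With only the outermost start of each gene, these became 20 of 53 (37.7%, interval 24.8 to 52.1) beside a background of 17.5% of protein-coding genes, the ribosomal protein hosts were still 27 of 29, and eEF1alpha1 no longer had one. Of the 7 noncoding hosts, 2 had a promoter summit (28.6%, interval 3.67 to 71), beside 9.17% of 3261 ncRNA genes. These 7 leave out Uhg7 and lncRNA:CR45184, noncoding genes that share members with RpL23A and Sf3b3 and were counted under those. Uhg7 holds all 4 members named under RpL23A, and no start of Uhg7 lay within 500 bp of the RpL23A summit. Of these 4, snoRNA:Or-CD15 did not lie within an RpL23A intron. No share was tested against its background.

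The start nearest to the summit was that of the host at 51 of the 55, and 21 of the 55 summits also lay within 500 bp of a start of another gene. Summits sat close to the start at ribosomal protein hosts, 6 to 112 bp away with a median of 24 bp. At the 25 other protein-coding hosts they lay 3 to 487 bp away, with a median of 139 bp. Promoter summits of hosts had a median signal of 352.6 (145.1 to 935), with 412.8 (197.8 to 935) at the 27 ribosomal protein hosts and 281.6 (145.1 to 795.3) at the 25 others. The ranges overlap over most of their length.

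RpS4, with 3 snoRNA genes, had the highest signal of a host promoter, 935, with 448.3 in replicate 2 and 510.4 in replicate 3. Stt3A, the catalytic subunit of oligosaccharyltransferase, followed with 795.3 (351.4 and 443.8), but its summit lay 375 bp from its own start and nearer to that of bves. RpL30 had 780 (398.7 and 376.7) and Uhg4 had 742.8. CG12316 had 668.4 (245.4 and 419.1), RpL13A had 580.7 (228.1 and 373.3), and RpS7 had 526.9 (235.8 and 291.4). Each of these was matched in both replicates, whose scores are on scales of their own. Dph4 and Spec2 also start within 500 bp of the RpL13A summit. RpL14 (523.7), RpL7A (515.8; 232.9 and 282.1), RpS3A on chromosome 4 (504.2; 211.3 and 295.5), RpL28 (502.7) and RpL3 (494.1) complete the 12 strongest. Ribosomal proteins of both subunits are among them.

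**Figure D3:**
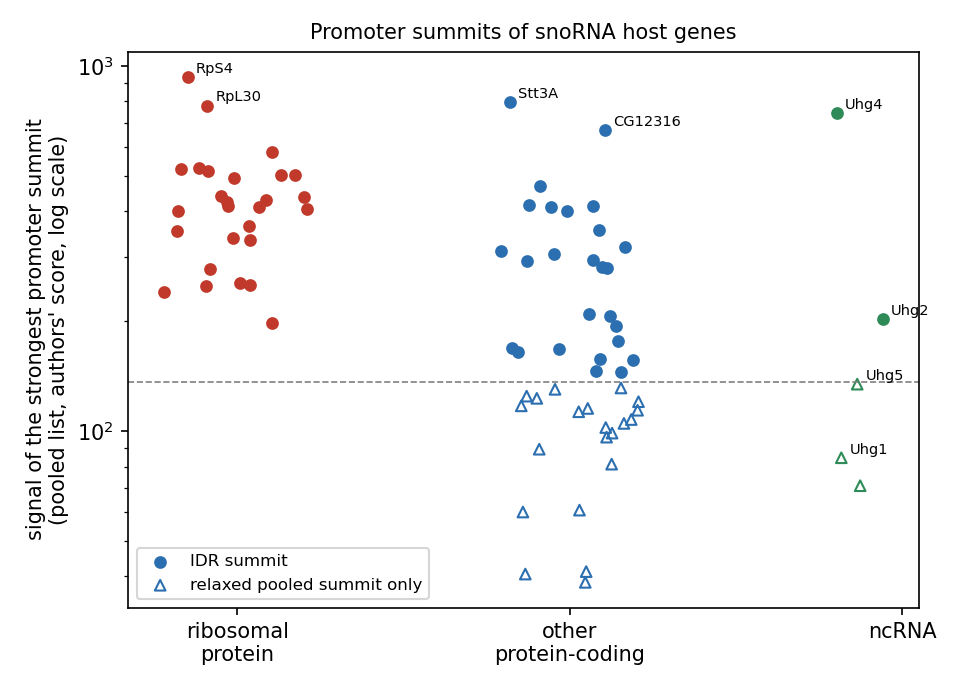
Each symbol is the strongest promoter summit of 1 host in the pooled list (authors' score, log scale), by kind of host; the eEF1alpha1 host is drawn with the other protein-coding genes. Filled circles are IDR summits and open triangles summits found only in the relaxed pooled list, below the dashed line at 136.3; 11 hosts without a promoter summit in the pooled list are not drawn.

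**Figure D4:**
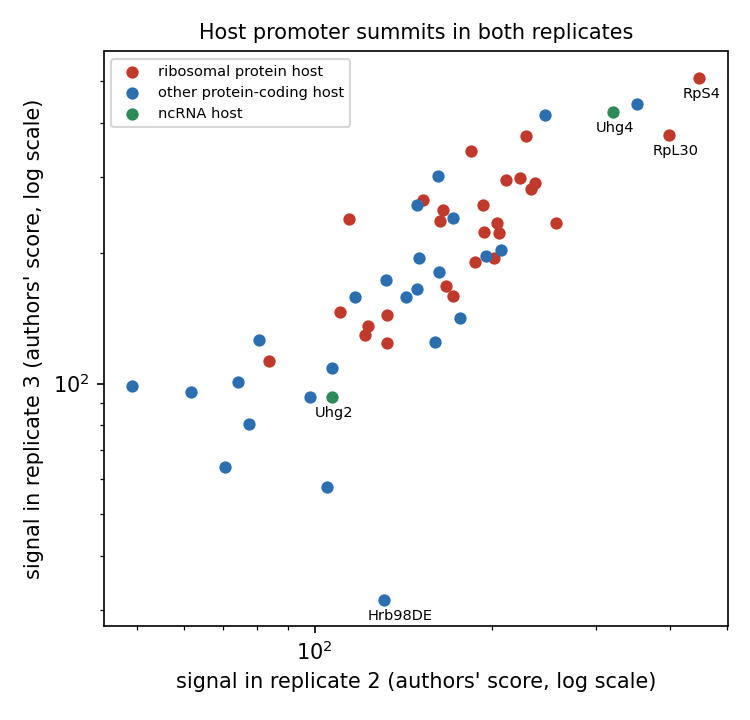
Signal in replicate 2 (x axis) and replicate 3 (y axis) of the 54 IDR promoter summits of hosts matched within 100 bp in both replicates (authors' scores, log scales). RpS4 is highest in both, at 448.3 and 510.4, and Hrb98DE lies farthest below the others, at 131.3 and 31.63. Replicate 3 had a stronger summit, of 74.27, elsewhere in the Hrb98DE promoter, which is not drawn.

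Hosts with many snoRNA genes were not all among those with a promoter summit. A summit was found at 29 of 53 hosts with 1 snoRNA gene (54.7%, interval 40.4 to 68.4), at 26 of 37 with 2 or more (70.3%, interval 53 to 84.1) and at 13 of the 19 with 4 or more (68.4%, interval 43.4 to 87.4). The host with most members, Arpc2, a subunit of the actin-nucleating Arp2/3 complex with 17 snoRNA genes, had no IDR summit; its relaxed pooled summit had a signal of 89.23, with 79.2 in replicate 3; replicate 2 had a summit of 44.96 elsewhere in the promoter. Uhg1, with 16, had a relaxed summit with 84.55 (49.12 and 29.05). Uhg5, with 11, had one with 134.5, rank 5803 of the pooled list, just below the lowest IDR signal of 136.3; it had 96.75 in replicate 2, and replicate 3 had a summit of 49.89 elsewhere in the promoter. Among the large noncoding hosts, Uhg4 was thus one of the strongest host promoters, and Uhg1 and Uhg5 had no summit in the IDR list.

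Among the hosts of 4 or more with an IDR summit, dom, the ATPase of a chromatin remodeller, with 15 snoRNA genes, had a signal of 206.9 (106.9 in replicate 2, 108.4 in replicate 3). RpS5a, with 14, had 352.6 (114.3 and 240.6), and its snoRNA genes all lie more than 1000 bp from the summit. Sf3b3, with 9, had 311.7, and Hrb98DE, an hnRNP gene with 7, had 157.2, from 131.3 in replicate 2 and 31.63 in replicate 3. Among the 54 host summits matched in both replicates, this pair of scores differed by the largest ratio. Replicate 3 also had a stronger summit, of 74.27, elsewhere in the Hrb98DE promoter, 62 bp from a start and 552 bp from the IDR summit. RpS7 and Uhg4 hold 7 each, RpL28 5, and RpL3 and RpL17 4 each, with the signals given above. RpS16, with 5, had 365.8 (186.8 and 190.7), and RpL23A, with 4, had 412.8 (152.6 and 265.4). CG30394 also starts within 500 bp of the dom summit, and CG4294 within 500 bp of that of RpS16. lola, a transcription factor gene with 4 snoRNA genes, had 411.9 (171.8 and 241.9) and holds 7 IDR summits in all. Uhg2, with 4, had 202.3. Without an IDR summit were kra, CG10576 and Nop60B. The translation regulator kra, with 8, had a relaxed summit of 105 (replicates 21.16 and 67.19). Replicate 2 also had a stronger summit, of 66.79, elsewhere in the kra promoter, 41 bp from a start. CG10576, with 5, had a relaxed one of 123 (replicates 58.53 and 67.54). Nop60B, with 7, had no relaxed pooled summit at its promoter and one of 22.27 in replicate 3.

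**Figure D5:**
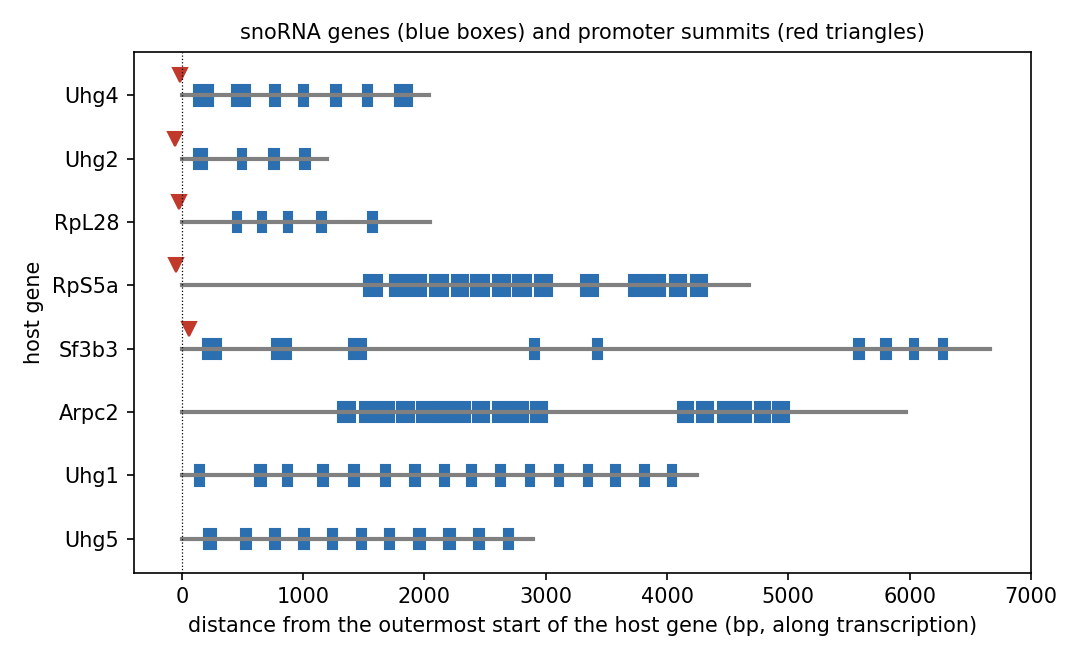
Maps of 8 hosts to scale, in bp from the outermost start along transcription: grey lines are the host genes, blue boxes the snoRNA genes and red triangles the IDR summit at the promoter. In Uhg4, Uhg2, RpL28, RpS5a and Sf3b3 the summit sits at the start and the snoRNA genes extend away from it; Arpc2, Uhg1 and Uhg5 have none.

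A relaxed pooled summit was found at 24 of the 35 hosts without an IDR one, with signals of 38.53 to 134.5 and a median of 103.7. That list holds 30000 peaks, and the share of all genes with such a summit was not counted, so 24 of 35 has no background. Of the 2 ribosomal protein hosts without an IDR summit, RpL5 and RpL15, neither had a relaxed pooled one. Their 3 snoRNA genes, 1 in RpL5 and 2 in RpL15, are the only members that lie beyond the last peak of the pooled list on their arm. Replicate 3 alone had a summit 49 bp from a start of RpL15, with a signal of 88.3, and neither replicate had one at RpL5. The noncoding hosts Uhg8 and lncRNA:CR31647 had no promoter summit in any list, and Uhg3 had a relaxed one of 70.88 (36.68 and 36.43).

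Promoter letters were searched in 300 bases, 250 before to 50 after the outermost start, on both strands. TATCGAT, the core of the DNA replication-related element, occurred in 32 of 90 host promoters (35.6%), against 15.7% of 17206 promoters of protein-coding and ncRNA genes. It occurred in 17 of the 55 with a promoter summit (30.9%) and in 15 of the 35 without (42.9%), a difference that was not tested. CACGTG occurred in 9 of 90 (10%, all promoters 4.17%), among them 3 of the 7 noncoding hosts. CTTTTC occurred in 26 of 90 (28.9%, all 26.3%), in 20 of 55 with a summit (36.4%) and in 6 of 35 without (17.1%). TATAAA (45.6%, all 43.8%), GGTCACACT (8.89%, all 4.99%), GAGAGAG (2.22%, all 5.68%) and AATTCCCAA (2.22%, all 0.523%) were searched too. In the same 300 bases at the 22 snoRNA genes in no host, AATTCCCAA, part of the element that snRNA-type genes use, occurred in 3. These were snoRNA:185, snoRNA:Me18S-A1806 and snoRNA:U3:9B. CACGTG occurred there in 4 (18.2%), CTTTTC in 5 (22.7%) and TATAAA in 10 (45.5%), and the other motifs searched in none. A match of letters is a description and not a site of binding.

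The protein side of the pathway was described from a list of 25 genes for snoRNA-protein core components, assembly, release and snRNA-type transcription. A promoter summit was found at 4 of the 25, near the background of 20% of protein-coding genes. The count was 2 with a window of 250 bp, in the 2851 strongest IDR peaks, and with the strongest summits of replicate 3 alone. Of the box C/D core genes, Fib (fibrillarin, the methyltransferase), nop5, Nop56 and hoip, 0 of 4 had an IDR summit, and 3 had a relaxed pooled one, at signals of 60.76, 120.4 and 114.9 in the order named. Of the box H/ACA core genes, NHP2 had a signal of 235 (114.2 in replicate 2, 118.2 in replicate 3), 223 bp from its start, and Nop60B, Nop10 and Gar1 had none; Nop10 had a relaxed one of 61.55. The helicase gene pont, which helps to assemble snoRNA-protein particles, had 254.7 (105.6 and 149.8) at 70 bp. coil, the gene of the Cajal body protein coilin, had 146.1 (75.41 and 70.68) at 429 bp. Pbp49, for a subunit of the complex that starts snRNA transcription, had 137.3 at 458 bp, close to the lowest signal of the list, with 94.44 in replicate 2 and no summit within 500 bp of a start in replicate 3. Fib, nop5 and Nop60B are themselves hosts of 1, 1 and 7 snoRNA genes.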

How the data were processed

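Per the labels' protocols, chromatin of whole prepupae was sheared by sonication and precipitated with an anti-GFP antibody, as biological replicates 2 and 3 of 1 group. The authors deposited narrowPeak lists on dm6 and dm3, and only dm6 was used. Per the notes deposited with the files, 1 relaxed list per replicate and 1 on both alignments together were called against a control alignment, and an IDR list of 5703 peaks was derived from them. The aligner and caller were not given in the sources used here. Each peak carries a deposited signal value, a score. The deposited −log10 q-value was 4.18 in every IDR peak and was not used. Depth is unknown: the pooled and replicate lists stop at 30000 peaks, which does not stand in for it.

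Summits (peak start plus offset) were set against gene starts of Ensembl release 115 on 6 arms; all peaks there end inside the reference arms. A nearby summit is within 500 bp of the gene start. A host is a gene on the same strand whose span holds the snoRNA gene, excluding small RNA, transfer RNA and ribosomal RNA genes; its promoter is 500 bp on either side of any transcript start. Where several genes qualify, protein-coding ones and then the shortest are named. Replicate values are those of the nearest replicate summit within 100 bp, on each replicate's own scale. Named are all members with a nearby summit, those just outside, the 12 hosts with the strongest promoter summit, hosts of 4 or more snoRNA genes, and core and called genes of the pathway list, whose 25 names all matched. Other genes named were chosen after their values were seen. The members and lists were chosen with earlier results of these data known. Counting was tested on simulated data with planted summits. Python 3.11.15, pandas 2.3.3, scipy 1.17.1, Biopython 1.88 and matplotlib 3.10.9 were used. Alternatives were other windows, the stronger 2851 peaks, replicates alone, the pooled list, peak bodies, other host rules and distinct summits.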

Additional observations from a re-analysis of the deposited data

How the results depend on the processing

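With a window of 250 bp, 14 snoRNA genes had a nearby summit, 9 of them in a host with a promoter summit, 2 pathway genes had a promoter summit and the median signal was 212.6; with 1000 bp, 59, 52 and a median of 278.1. In the stronger 2851 peaks, 2 snoRNA genes had a nearby summit without such a host, 2 pathway genes had one, and the median was 322.4. The relaxed pooled list gave 103 snoRNA genes with a nearby summit and 227 in a host with a promoter summit. It gave 85 with both, 18 with the first alone, and 16 pathway genes. The share of all genes was not counted in that list, so these numbers have no background. Each count from the 5703 strongest summits of 1 replicate alone ranged over the 2 replicates as follows. Nearby summits numbered 24 to 30, members in a host with a promoter summit 160 to 161, both 17 to 22, nearby summits without such a host 7 to 8, hosts 57 in each, and pathway genes 2 to 4. Median signals of 131 to 143.9 are on the replicates' own scales. Of the 25 members, 24 had a nearby summit in replicate 2 alone and 22 in replicate 3 alone, where snoRNA:Psi28S-2566 and snoRNA:Psi18S-176 were lost besides snoRNA:CG31191-a, lost in both. The number of hosts with a promoter summit ran from 45 to 79 of 90 over the alternatives (58 of 99 with hosts on either strand). No paired analysis was possible because there is 1 group. Depth is unknown, so a promoter without a summit is only one not called in these lists.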
